A study of Homo sapiens with 6 samples.

Results

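The genes described here are 31 members of the pathways that make cholesterol and fatty acids, together with the factors that regulate them. They were taken by symbol from a deposited table of 31785 rows, and all 31 were found. All 31 also passed the filter on low values that kept 13558 rows for testing. The filter asked for a mean over the libraries at least 1 above the table's lowest value. Levels are given as normalised reads, the reads of a gene divided by a depth factor per library and recovered from the deposited values. A difference is the knockdown mean less the WT mean of the deposited log2-like values, which is smaller than a log2 fold for weakly expressed genes, and folds are ratios of mean normalised reads. RNA sequencing had been run on D283 Med, an established line grown from a childhood cerebellar tumour, medulloblastoma. The study compared 3 libraries labelled WT with 3 labelled Musashi-1 knockdown, and all of them came from this line, which the series title places among Group 3/4 medulloblastomas. Musashi-1, the product of MSI1, binds mRNAs and is known from neural stem cells. The labels name no knockdown construct and no control construct, give no time after knockdown, and do not say whether the libraries of a group were separate cultures. The p-values thus reflect only how these libraries varied, which may be technical. The WT columns carry a heading, VV, that the labels do not explain. They were taken as WT by elimination and are numbered here as in the heading.

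Cells make cholesterol from acetyl-CoA through mevalonate, farnesyl diphosphate and squalene, and make saturated and unsaturated fatty acids from the same precursor. The enzymes of both routes are transcribed under SREBP factors, which are held in the endoplasmic reticulum by INSIG proteins while sterols are plentiful. When sterols fall, the escort protein SCAP carries SREBP to the Golgi, where it is cleaved and released to the nucleus. SREBP-2 (gene SREBF2) acts mostly on sterol genes and SREBP-1 (gene SREBF1) mostly on fatty acid genes. In the growing cerebellum, dividing granule neuron precursors are known to make lipids for new membrane.

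Promoter sequences are shown for called members of the list and for the feedback gene INSIG1, because the sterol genes share a known promoter layout. In that layout a sterol regulatory element lies near a CCAAT box, which is bound by NF-Y, and a GC box, which is bound by Sp1. The stretches come from RefSeq (GRCh38.p14) and end before any untranslated or coding base in GENCODE 29. They read 5′ to 3′ on the strand of the gene. Capitals mark the sterol regulatory element TCACNCCAC, the E-box CACGTG, the CCAAT box and the GC box GGGCGG, each searched on both strands, and capitals run together where boxes overlap. Boxes that lie past or across the end of a printed stretch are not in capitals. These are GC boxes of SREBF2, FDPS and INSIG1, CCAAT boxes of FDPS and HMGCS1, and the E-box of INSIG1.
SREBF2 promoter, GRCh38 chr22:41832855-41833078, plus strand: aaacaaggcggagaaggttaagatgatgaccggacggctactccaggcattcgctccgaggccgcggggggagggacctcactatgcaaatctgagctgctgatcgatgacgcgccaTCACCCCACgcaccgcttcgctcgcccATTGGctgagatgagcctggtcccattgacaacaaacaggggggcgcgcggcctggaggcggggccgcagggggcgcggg
SREBF1 promoter, GRCh38 chr17:17837003-17837236, minus strand: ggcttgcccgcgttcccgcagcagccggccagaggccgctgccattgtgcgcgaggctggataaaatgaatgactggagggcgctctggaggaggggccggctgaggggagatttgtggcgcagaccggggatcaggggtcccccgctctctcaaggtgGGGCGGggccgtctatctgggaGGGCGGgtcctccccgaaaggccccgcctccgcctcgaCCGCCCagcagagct
HMGCS1 promoter, GRCh38 chr5:43313513-43313662, minus strand: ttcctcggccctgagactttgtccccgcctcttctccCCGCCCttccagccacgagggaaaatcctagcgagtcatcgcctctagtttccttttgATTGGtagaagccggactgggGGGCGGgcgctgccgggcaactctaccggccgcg
FDPS promoter, GRCh38 chr1:155308616-155308747, plus strand: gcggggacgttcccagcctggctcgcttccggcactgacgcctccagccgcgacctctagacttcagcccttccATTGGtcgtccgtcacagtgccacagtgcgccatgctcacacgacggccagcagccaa
INSIG1 promoter, GRCh38 chr7:155297628-155297775, plus strand: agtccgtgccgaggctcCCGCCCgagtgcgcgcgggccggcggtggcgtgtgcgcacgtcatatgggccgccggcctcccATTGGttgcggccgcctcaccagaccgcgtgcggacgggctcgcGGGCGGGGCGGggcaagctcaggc
RefSeq promoters were at hand for 27 of the 31 members, taking the most upstream start of each gene and its 250 bases upstream. The letters TCACNCCAC were found in 1 of these 27, SREBF2, at bases −133 to −125 from the start, against 0.868% of 27305 promoters. A CCAAT box was found in 17 of the 27 (63.0%) against 33.0% of all promoters, and a GC box in 24 (88.9%) against 42.2%. The E-box was found in 3 of the 27, INSIG1, SCAP and SC5D, which is 11.1% against 6.46%. The 27305 promoters were not limited to genes tested here, whereas all 31 members were tested, so the sets compared are unlike. MVK held 5 CCAAT boxes in this window, as did NSDHL. The MVK window is annotated as untranslated in transcripts of MVK or MMAB and is not printed. A match describes letters and does not show a bound site, and a window without a match says only that these letters are not in it.

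Recovered depth ranged from 17299671 to 38790342 reads over the WT libraries and from 18895997 to 24442276 over the knockdown libraries. MSI1 itself had 1378 to 1586 normalised reads in the WT libraries and 1197 to 1385 in the knockdown libraries. Those ranges overlapped, and the difference of −0.21 (95% interval −0.47 to 0.04) was not called (limma, adjusted p = 0.304), so the mRNA does not separate the groups as labelled. The medulloblastoma factor OTX2 was abundant, with 19886 to 26228 normalised reads in WT and 27356 to 34344 in knockdown. Of the 7 markers listed for this tumour, 3 were kept, namely OTX2, NEUROD1 and ZIC1, and LMX1A, BARHL1, EOMES and PAX6 were below the filter. Markers of hepatocytes and adipocytes, cells of high lipid synthesis, summed to 13.2 normalised reads or fewer in every library. The summed fibroblast markers ranged from 993 to 1304 in WT and from 716 to 1062 in knockdown, led by PDGFRB, and these ranges overlapped. Of the 6 fibroblast markers listed 3 were kept, 1 with a higher and 2 with lower means in knockdown, and 0 were called. The part of any fibroblast marker difference in the results below was not tested.

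Both SREBP genes and 3 genes of the mevalonate route, HMGCS1, MVK and FDPS, rose in the knockdown libraries by 1.51 to 1.71-fold. These were 5 of the 31 members, and 0 fell (limma, adjusted p under 0.05 over all genes), against 4.1% of all genes tested that were called, 1.78% higher and 2.32% lower. With limma voom on the recovered reads 3 rose and 0 fell. Of the 18 sterol enzymes 16 had higher means in knockdown, while the 8 fatty acid enzymes were split evenly. At an unadjusted p under 0.05 there were 15 members, 3 of them lower (SC5D, ACLY and ACACA), against 22% of all genes tested. The median difference of the members was 0.31 on the deposited log2-like scale, beside 0.0061 over all genes, and 24 of 31 were positive, beside 51.0% of all genes. The groups did not overlap for 10 members that were higher and for 1 that was lower, against 14.1% and 13.6% of all genes (27.8% in either direction). The members were chosen with earlier results of these data known, so these counts are a description.

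**Figure D1:**
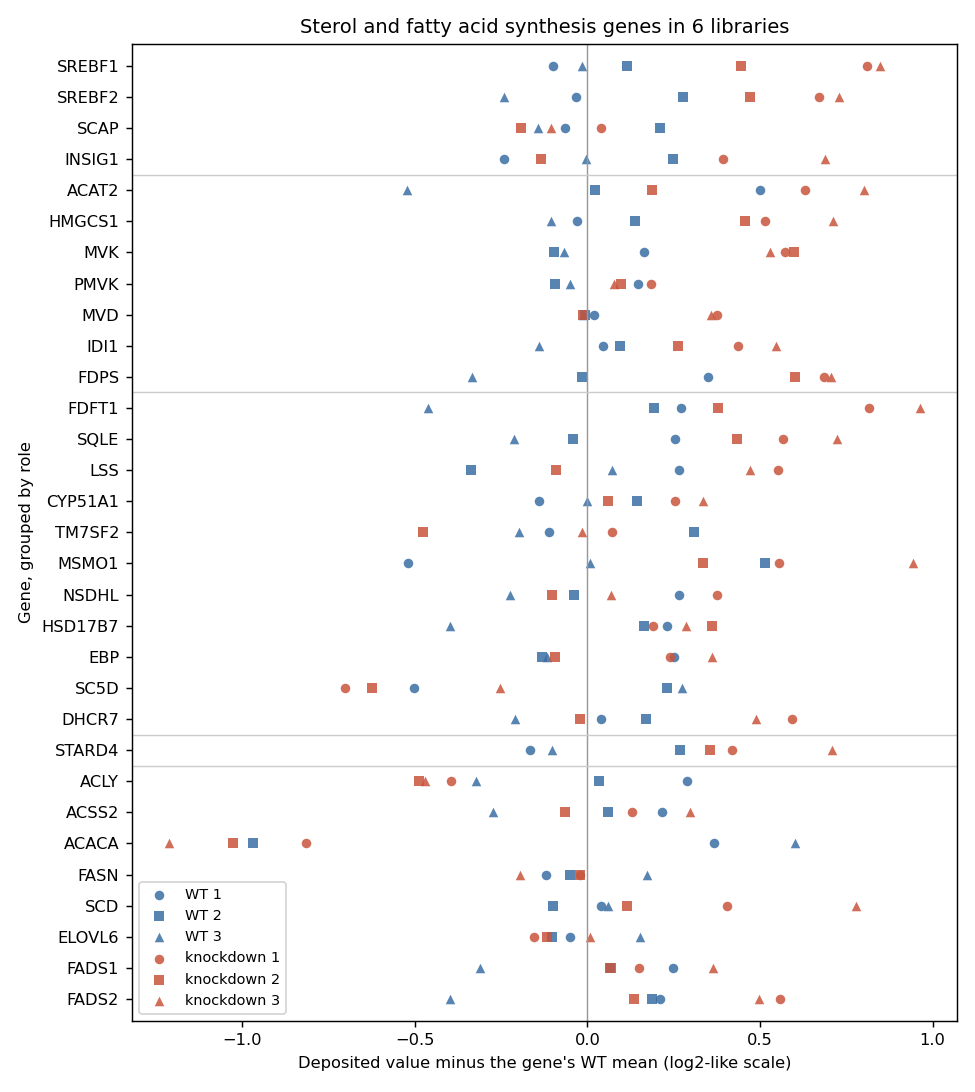
Each point is 1 library; the horizontal axis gives the deposited log2-like value minus the gene's mean over the 3 WT libraries, and genes are grouped by role. Knockdown points lie to the right of all WT points for 10 genes and to the left for 1, ACLY.

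The genes of the SREBP factors themselves rose. SREBF1 lies on chromosome 17, minus strand, from 17810399 to 17837002 (GRCh38, as for all positions here). Its normalised reads were 876, 1032 and 933 in WT 1, 2 and 3, against 1736, 1324 and 1786 in knockdown 1, 2 and 3. Every knockdown library lay above every WT library, with knockdown 2 the lowest of the 3. The means were 947 ± 79.3 and 1615 ± 253 (SD, n = 3 each), a 1.71-fold rise (difference 0.70, SE 0.14, limma adjusted p = 0.0257). SREBF2, on chromosome 22, plus strand, from 41833079 to 41907308, had 6456, 8036 and 5571 normalised reads in WT, against 10587, 9210.1 and 11039 in knockdown. WT 2 was the highest of its group and knockdown 2 the lowest of the other, and the groups did not overlap. SREBF2 rose 1.54-fold (difference 0.62, SE 0.15, limma adjusted p = 0.0489), just inside the threshold. Its promoter, printed above, is the one with the sterol regulatory element, followed by a CCAAT box on the other strand at bases −106 to −102.

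The genes of the proteins that hold or escort SREBP were not called. SCAP, the escort, had 4513, 5486 and 4271 normalised reads in WT, against 4864, 4128 and 4391 in knockdown. These ranges overlapped throughout, and the interval of the difference was −0.37 to 0.20 (limma, adjusted p = 0.747). INSIG1, the sterol-sensitive anchor and itself an SREBP target, had 603, 889 and 730.0 in WT, against 995, 658 and 1244 in knockdown. Knockdown 1 and 3 lay above all WT libraries and knockdown 2 lay among them, giving a difference of 0.31 (95% interval −0.14 to 0.77, limma adjusted p = 0.400). Of the 15 genes listed for SREBP regulation, which hold these 4 members, 2 rose, the 2 SREBP genes, and none fell (median 0.07). The second anchor gene, INSIG2, differed by 0.32 (limma, adjusted p = 0.297), and PAQR3, which retains SCAP at the Golgi, by −0.25 (limma, adjusted p = 0.293). The Golgi proteases MBTPS1 and MBTPS2 differed by −0.05 and 0.13.

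In the mevalonate part of the pathway all 7 members had higher means in knockdown, and 3 rose (median 0.54). HMGCS1, the cytosolic synthase that joins acetyl-CoA and acetoacetyl-CoA, lies on chromosome 5, minus strand, from 43289395 to 43313512. It had 1493, 1689.6 and 1412 normalised reads in WT, against 2228, 2134 and 2569 in knockdown. The groups were well apart, the lowest knockdown library exceeding the highest WT library, and the gene rose 1.51-fold (difference 0.56, SE 0.12, limma adjusted p = 0.0344). MVK, mevalonate kinase, on chromosome 12, plus strand, from 109573255 to 109598117, had 575, 464 and 474 in WT, against 797, 812 and 769 in knockdown. The knockdown libraries were close together (793 ± 21.8, SD, n = 3), and MVK rose 1.57-fold (difference 0.57, SE 0.12, limma adjusted p = 0.0343). FDPS, farnesyl diphosphate synthase, on chromosome 1, plus strand, from 155308748 to 155320666, had 2744, 2105 and 1665 in WT, against 3491, 3288 and 3539 in knockdown. WT 3 was the lowest and WT 1 the nearest to knockdown, and FDPS rose 1.58-fold (difference 0.66, SE 0.16, limma adjusted p = 0.0471).

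The other 4 mevalonate members did not pass. IDI1, the isomerase that makes the allylic isoprenoid unit, had 1059, 1098 and 917 normalised reads in WT, against 1421, 1247 and 1542 in knockdown, without overlap (difference 0.42, limma adjusted p = 0.0896). ACAT2, which makes acetoacetyl-CoA at the head of the route, ranged from 501 to 1124 in WT and from 884 to 1410.0 in knockdown (difference 0.54, limma adjusted p = 0.222). PMVK, phosphomevalonate kinase, differed by 0.12 (95% interval −0.13 to 0.37). MVD, the decarboxylase, was at 469.7 to 482 in WT, and in knockdown 2 it was at 469 while the other knockdown libraries reached 636 and 646.

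In the squalene and sterol part 9 of 11 members had higher means in knockdown, and the median was 0.28. None passed the test in either direction with limma or with limma voom. At an unadjusted p under 0.05 there were 4, against 22% of all genes tested. The enzymes that commit farnesyl diphosphate to sterols came closest. FDFT1, squalene synthase, on chromosome 8, plus strand, from 11795573 to 11839309, had 2849, 2697 and 1672 normalised reads in WT, against 4215, 3081 and 4675 in knockdown. WT 3 and knockdown 2 were the low libraries of their groups, the groups did not overlap, and the mean was 1.66-fold higher (difference 0.72, SE 0.21, limma adjusted p = 0.0804). SQLE, squalene epoxidase, a rate-limiting step, had 5615, 4555 and 4032 in WT, against 6996, 6376 and 7809.5 in knockdown. All 3 knockdown libraries were above all WT libraries, with a difference of 0.57 (SE 0.14) just outside the threshold (limma, adjusted p = 0.0543). SQLE passed in 4 of 15 alternatives, without the filter, with quantile normalisation, with library weights and without WT 1 (limma, adjusted p = 0.0469, 0.0257, 0.0102 and 0.0237). FDFT1 passed in 2, without the filter and with library weights (limma, adjusted p = 0.0431 and 0.0168).

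The other sterol enzymes were not called. MSMO1, the C4-methyl oxidase, had 725, 1596 and 1091 normalised reads in WT, against 1644, 1397 and 2187 in knockdown. Its groups overlapped, since WT 2 exceeded knockdown 2 (difference 0.61, limma adjusted p = 0.171). DHCR7, which acts at the end of the pathway, had 1029 to 1369 in WT, against 1874, 1187 and 1733 in knockdown (difference 0.35, limma adjusted p = 0.256). LSS, lanosterol synthase, HSD17B7, CYP51A1, EBP and NSDHL had differences of 0.31, 0.28, 0.22, 0.17 and 0.11, all with intervals that held 0. TM7SF2, the C14 reductase, differed by −0.14 (95% interval −0.54 to 0.26).

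SC5D, the C5 desaturase of the last steps, was the sterol enzyme with the lowest difference. It had 4914, 8246 and 8491 normalised reads in WT, against 4267, 4508 and 5863 in knockdown. WT 1 lay among the knockdown libraries, so the groups overlapped (difference −0.53, SE 0.21, limma adjusted p = 0.174). Without WT 1 the difference was −0.78 and passed (limma, adjusted p = 0.0259). STARD4, a carrier that moves cholesterol between membranes and an SREBP-2 target, had 274, 404 and 290.1 in WT, against 458, 435 and 584 in knockdown. Its groups did not overlap, though the difference of 0.49 did not pass (limma, adjusted p = 0.107).

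**Figure D2:**
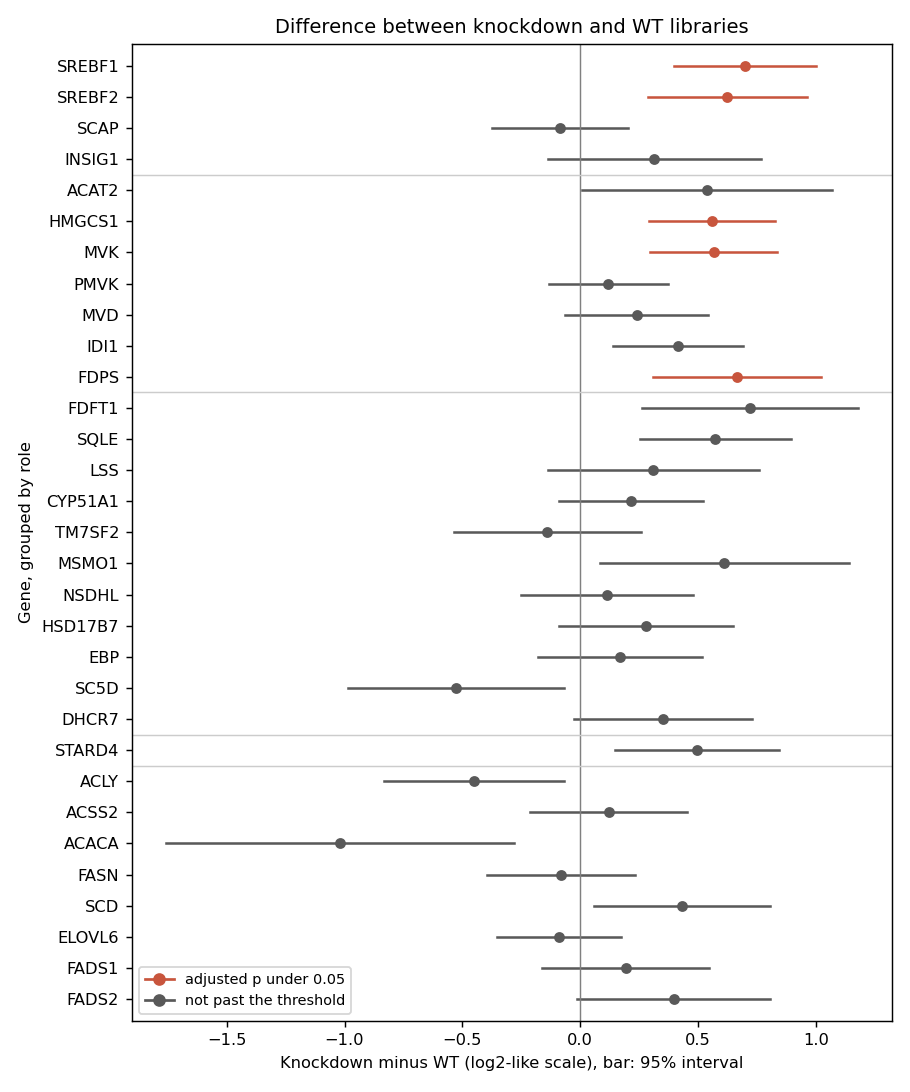
Points give knockdown minus WT on the log2-like scale and bars the 95% interval from limma; colour marks the 5 genes with an adjusted p under 0.05. The sterol enzymes lie mostly between 0.11 and 0.72, while the fatty acid enzymes lie on both sides of 0.

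The fatty acid enzymes had no common direction. Of 8 members 4 had higher and 4 lower means in knockdown, and the median was 0.02. None passed the test in either direction with limma or with limma voom. At an unadjusted p under 0.05 there were 3, against 22% of all genes tested. ACLY, which splits citrate into the acetyl-CoA used by both pathways, had 36670.1, 30759 and 23994 normalised reads in WT, against 22800.5, 21365 and 21618 in knockdown. All knockdown libraries lay below all WT libraries, with WT 3 close to them (difference −0.45, SE 0.17, limma adjusted p = 0.164). With quantile normalisation the difference was −0.55 and passed (limma, adjusted p = 0.0346). ACSS2, which makes acetyl-CoA from acetate, ranged from 1609.6 to 2303 in WT and from 1877 to 2442 in knockdown.

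ACACA, the carboxylase that makes malonyl-CoA, had the widest difference of the list and the widest spread. It had 319, 75.1 and 393 normalised reads in WT, against 92.1, 69.2 and 52.6 in knockdown. WT 2 lay among the knockdown libraries, while WT 1 and WT 3 were far above them. The difference of −1.02 (95% interval −1.76 to −0.28) did not pass (limma, adjusted p = 0.114), and without WT 2 it was −1.50 and passed (limma, adjusted p = 0.0177). This gene rested on 49 to 512 reads per library, and 49 is the fewest for any member in any library. ACACB, the paralog that makes malonyl-CoA at mitochondria, had 1704 to 1855 normalised reads in WT and 1923 to 2205 in knockdown (difference 0.19, limma adjusted p = 0.3499). Per kilobase of exon the WT level of ACACB was 123 and that of ACACA 20.2 ± 12.8 (SD, n = 3).

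FASN, the fatty acid synthase, had overlapping groups, with 18674, 19579.6 and 22885 normalised reads in WT, against 19987, 19986 and 17715 in knockdown. The difference was −0.08, with a 95% interval of −0.39 to 0.23. SCD, which puts the first double bond into palmitate and stearate, had 11188, 10148 and 11328 in WT, against 14419, 11788 and 18739.5 in knockdown. The groups did not overlap and knockdown 3 was far above the rest (difference 0.43, limma adjusted p = 0.172). ELOVL6, which lengthens palmitate, differed by −0.09 (95% interval −0.35 to 0.17). The desaturases of polyunsaturated fatty acids, FADS1 and FADS2, differed by 0.19 and 0.40 (limma, adjusted p = 0.515 and 0.243), and WT 3 was the lowest library for both.

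Genome position was recorded beside these values. ACACA, ACLY and FASN lie on the long arm of chromosome 17, from 37084988 to 37406818, 41866908 to 41930542 and 82078333 to 82098332. The 578 tested genes of that arm had a median difference of −0.33, and 514 of them were negative. The median deviation of the arm from its genes' means was 0.15, 0.17 and 0.15 in WT 1, 2 and 3, but −0.13, −0.19 and −0.17 in knockdown 1, 2 and 3. Those 3 members are 3 of the 4 fatty acid enzymes with negative differences, and the part of the arm in their values was not tested. SREBF1 lies on the short arm, whose 210 tested genes had a median difference of 0.0093.

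The libraries differed in how far they carried the pattern. WT 3 was the lowest library for 13 of 31 members, and knockdown 3 the highest for 16. These counts are not given here over all genes, whose median deviation was −0.02 in WT 3 and 0.0073 in knockdown 3. The median deviation of the 7 mevalonate genes was −0.10, −0.16 and −0.35 in WT, against 0.26, 0.06 and 0.34 in knockdown, without overlap. For the 11 squalene and sterol genes it was −0.04, −0.01 and −0.28 in WT, against 0.25, −0.16 and 0.28 in knockdown, so knockdown 2 lay among the WT libraries. For the 8 fatty acid genes the groups overlapped, with 0.08, −0.02 and −0.13 in WT and 0.04, −0.09 and 0.14 in knockdown. No batch is given in the labels. Recovered depth was 17299671, 38790342 and 29173018 reads in WT 1, 2 and 3, against 24442276, 18895997 and 23369283 in knockdown 1, 2 and 3. Knockdown 2, the shallowest of its group, also had the lowest score of its group for each of these gene sets, and the part of depth in the scores was not tested.

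**Figure D3:**
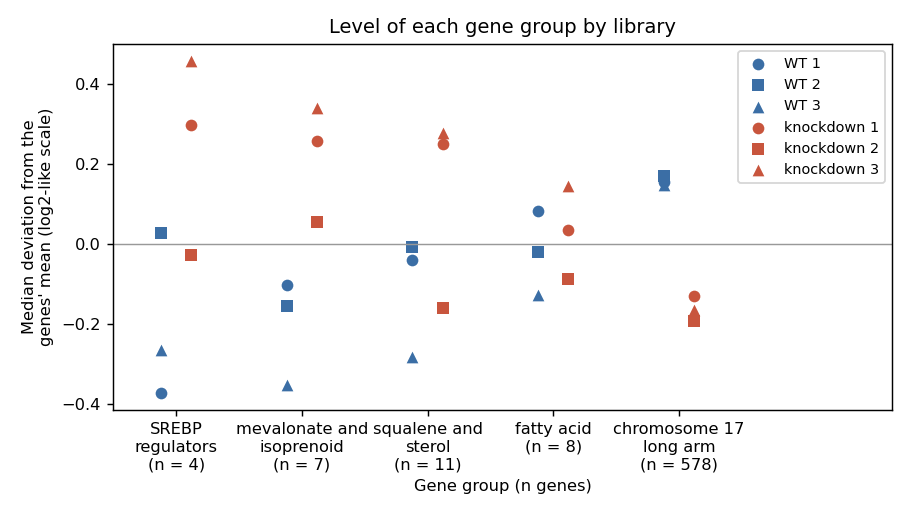
Each point is the median, over the genes of a group, of the deposited value minus the gene's mean over the 6 libraries. Groups of libraries are apart for the mevalonate genes and for the long arm of chromosome 17, and overlap for the SREBP regulators, the squalene and sterol genes and the fatty acid genes.

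The calls of the 5 members depended on which libraries were used. The count of members that rose was 5 without WT 1, 2 without WT 2, 1 without WT 3, 0 without knockdown 1, 1 without knockdown 2 and 0 without knockdown 3. The 5 without WT 1 held SQLE in place of SREBF2. Over all genes, leaving out 1 library gave 25 to 332 rises, against 242 with all libraries. SREBF1 kept its call in 12 of 15 alternatives and lost it without knockdown 1 (limma, adjusted p = 0.117), without knockdown 3 (0.114) and in 1 other fit. MVK and HMGCS1 each kept it in 9 of 15 and lost it without WT 2, without WT 3, without each of the knockdown libraries in turn and in that other fit. FDPS and SREBF2 each kept it in 7 of 15. FDPS lost it without WT 2 or WT 3 and SREBF2 without WT 1 or WT 3, and both lost it without each knockdown library, without the mean-variance trend, with limma voom and in that other fit. Their differences stayed positive in all 15, between 0.50 and 0.76 for SREBF2 and between 0.50 and 0.84 for FDPS. With library weights ACAT2, IDI1 and SCD also passed (limma, adjusted p = 0.0443, 0.0331 and 0.0439). Knockdown 3, the highest library for each of these genes, had a weight of 3.06 in that fit, and the other libraries had 0.47 to 1.49.

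**Figure D4:**
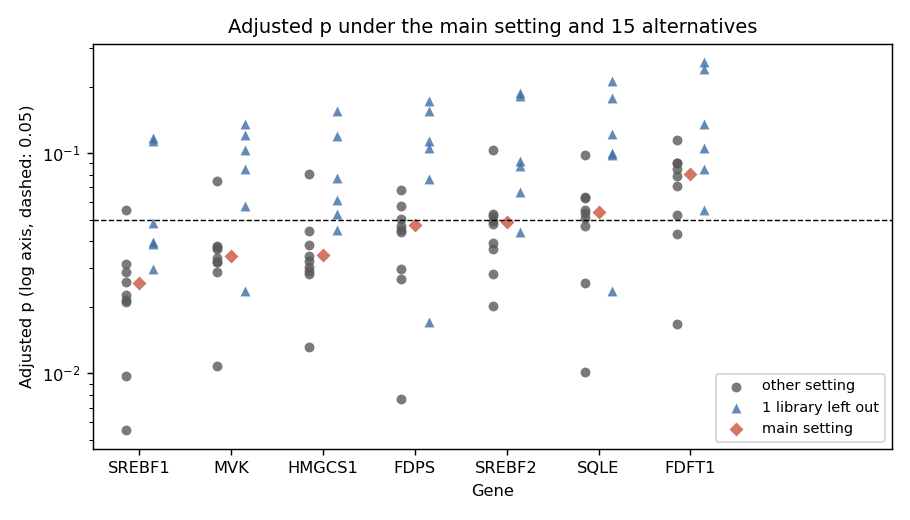
Adjusted p from limma for the 5 genes that rose and for SQLE and FDFT1, under the main setting and 15 alternatives, on a log axis with the threshold of 0.05 dashed. Most points with 1 library left out lie above the threshold, except for SREBF1.

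Levels across the pathway spanned a wide range when normalised reads were divided by exon length. In WT, ACLY was highest with 5841 ± 1216 normalised reads per kilobase, followed by FASN with 2176 ± 237 and SCD with 2031 ± 120.2 (SD, n = 3 each). FASN and SCD did not differ beyond their spread. SC5D, PMVK and SQLE came next with 1297 ± 359, 1208 ± 117 and 1099.6 ± 187, which also overlapped. SREBF2, at 885 ± 165, stood above SREBF1, at 118 ± 9.88, and in knockdown the levels were 1360.2 ± 126 and 201 ± 31.6. At the low end were MVK with 77.8 ± 9.52, STARD4, CYP51A1 and LSS with 56.7, 52.4 and 45.2, and ACACA. Exon length here is the union over all annotated transcripts, so genes with long, rarely used exons appear lower.

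**Figure D5:**
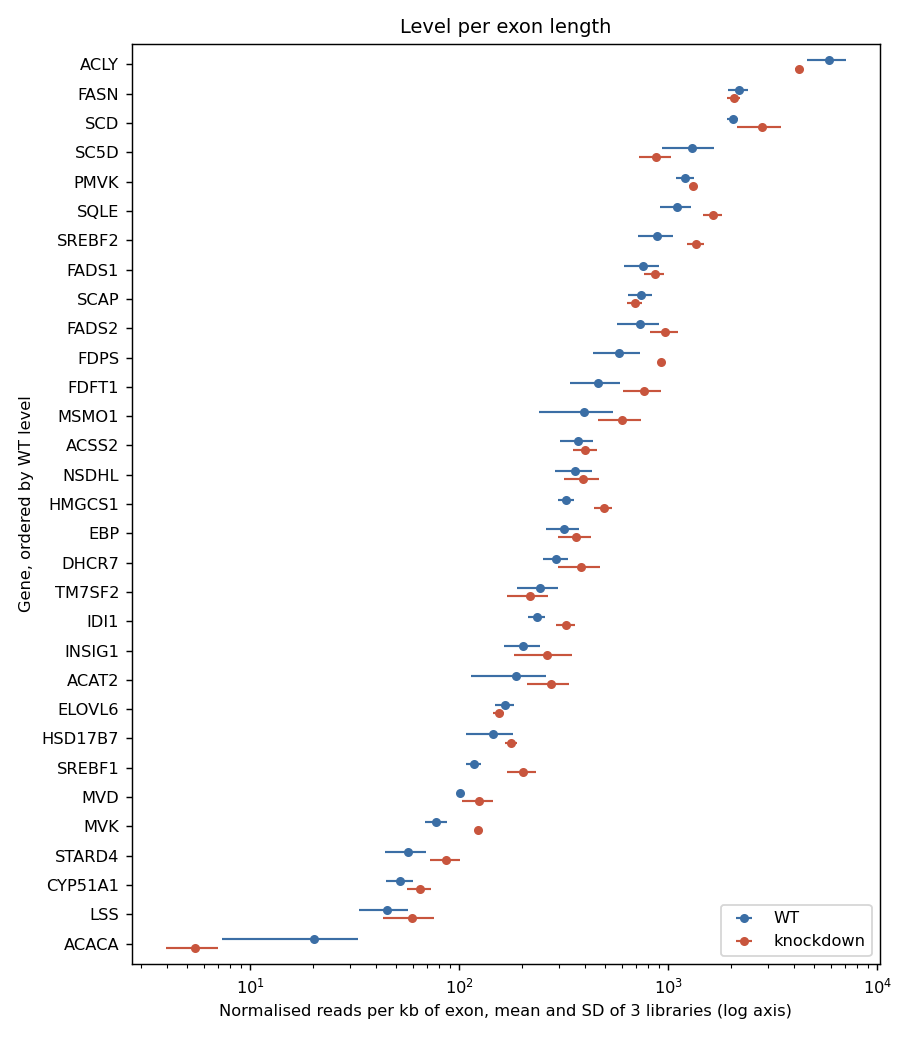
Mean normalised reads per kilobase of exon with SD over 3 libraries for each gene, WT and knockdown, on a log axis. The WT levels run from 20.2 for ACACA to 5841 for ACLY.

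Some members share sequence with other genes. The start of MVK overlaps that of MMAB, a cobalamin enzyme transcribed in the opposite direction, over 306 exon bases. MMAB had a similar difference, 0.62 (SE 0.16, limma adjusted p = 0.0584), from 780.0 ± 196 to 1229 ± 30.1 normalised reads. STARD4 and its antisense transcript STARD4-AS1 share 124 exon bases, and the latter differed by 0.34 (limma, adjusted p = 0.165). TMEM258, which starts 178 bases from FADS2 in the other direction, differed by 0.62 (limma, adjusted p = 0.123). SREBF1 shared 556 exon bases (6.92%) with RAI1 on the other strand, which had means of 1040 normalised reads in WT and 1154 in knockdown. HMGCS1 and FDPS shared 14.95% and 18.6% of their exon bases with antisense genes, and CYP51A1 79.4% with the gene AC000120.2 on its own strand. ACAT2 shared 26.5% with SOD2, 33.9% with SOD2-OT1 and 9.23% with TCP1, all on the other strand. TCP1 had means of 9025 normalised reads in WT and 9663 in knockdown. Whether counting used strand is not stated in the labels, so reads on shared bases cannot be assigned with certainty. Pseudogene rows such as FDPSP1, HSD17B7P2 and SCDP1 reached at most 16.2, 51.2 and 21.5 normalised reads, far under the lowest libraries of FDPS, HSD17B7 and SCD.

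Genes next to the pathway were read from 8 lists with 132 genes that are not members, of which 120 were tested. Of these 1 rose and 0 fell, with limma and with limma voom alike, against 4.1% of all genes tested that limma called. At an unadjusted p under 0.05 there were 19, against 22% of all genes tested, and the median was 0.08. The 1 was HADH, a mitochondrial enzyme of fatty acid breakdown, with 2438, 2129.8 and 1284 normalised reads in WT, against 3704, 3451 and 3654 in knockdown. Its groups were far apart and it rose 1.85-fold (difference 0.90, SE 0.19, limma adjusted p = 0.0346), a call lost without WT 2 (0.0611) and without knockdown 1, 2 or 3 (0.135, 0.0935 and 0.114). The other 19 tested genes of fatty acid oxidation did not pass (list median 0.13). Among genes that use farnesyl diphosphate, DHDDS, which makes the dolichol backbone, differed by 0.49 (limma, adjusted p = 0.0585), and none of 16 passed in either direction (median 0.13).

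The supply of acetyl-CoA and NADPH had no called gene among 11 tested (median 0.21). PGD of the pentose phosphate route ranged from 5505 to 10669 normalised reads in WT and from 11374 to 13565 in knockdown, a difference of 0.61 (limma, adjusted p = 0.134). Sterol transport and storage had none among 18 (median −0.0020), with OSBPL5 at 0.51 (limma, adjusted p = 0.0691) as the largest difference. GRAMD1B, which moves cholesterol from the plasma membrane to the endoplasmic reticulum, had the most negative difference of this list, −0.44, from 10137 ± 1116 to 7427 ± 382 normalised reads (limma, adjusted p = 0.0806). Fatty acid elongation and desaturation had none among 18 (median 0.16, ELOVL2 at 0.45), acyl activation and glycerolipid synthesis none among 19 (median −0.0016, ACSL1 at 0.56), and the electron donors of sterol enzymes none among 8 (median 0.06, CYB5B at 0.22).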

How the data were processed

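RNA sequencing of D283 Med cells gave 3 WT and 3 Musashi-1 knockdown libraries. The labels' protocols name the AllPrep kit for total RNA and Illumina library preparation. GEO's list of software, from the submitters' processing notes, holds STAR, DESeq, CASAVA 1.8.2, MultiQC, FastQC and Trim Galore, and the build is GRCh38. How reads were counted, with which annotation and whether by strand, is not stated there. The deposited values are log2-like. Going by the file's name and values, the authors divided counts by a size factor per library and applied a variance-stabilising function, which understates differences of weakly expressed genes.

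From these values, normalised reads were computed by inverting that function with the lowest value, 5.79, as a count of 0 (offset 55.2). With 1 factor per library, 100% of values became whole reads within a tolerance of 0.01, which gave the depth. Genes with a mean at least 1 above the lowest value, 27.6 normalised reads, were tested with limma 3.58.1 in R 4.3.3 (mean-variance trend, two-sided, no covariates) and Benjamini-Hochberg adjustment over 13558 rows, threshold 0.05. For single values, the smallest exact permutation p with 3 libraries a group is 0.1. The test was checked on simulated data with known changes, and 15 alternatives were run. In the simulated data it recovered 12 of 50 genes changed 1.5-fold and 29 of 50 changed 2-fold. Of those changed 3-fold and 4-fold it recovered 47 and 46 of 50. The spreads there were shuffled among genes and counting noise was added to them, so these shares may not hold for the measured genes. Changes near 1.5-fold were mostly missed in the simulation, and a gene not called is not shown to be unchanged. The members, lists and tests were chosen with earlier results of these data known. Members given by library are the called ones, 4 regulators and the 3 largest differences in each direction; from each related list up to 3 called genes, or else the largest difference. ACACB, INSIG2, PAQR3, MBTPS1, MBTPS2, GRAMD1B and the neighbouring genes were named in addition, after their values were seen, as were other members given by library. Positions and exon lengths are from GENCODE 29, matched by gene name. Some other genes of the pathway are not reported here.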

Additional observations from a re-analysis of the deposited data

How the results depend on the processing

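The median difference of the members stayed positive in all 15 alternatives, between 0.23 and 0.49, and 26 of 31 members kept their direction in all of them. The count of members that rose was 3 without the mean-variance trend, 3 with limma voom on the recovered reads, 10 with library weights and 0 to 5 with 1 library left out. The count that fell was 1 with quantile normalisation and 0 to 1 with 1 library left out. With library weights 532 genes rose and 681 fell, and with 1 library left out 25 to 332 rose and 31 to 396 fell. The related lists had 2 calls with quantile normalisation, 7 with library weights and 0 to 5 with 1 library left out. With 1 library left out, 5 members near 0 changed sign: SCAP ranged from −0.16 to 0.0194 (without WT 2), TM7SF2 from −0.25 to 0.0282 (without knockdown 2; 0.0144 without WT 2), NSDHL from −0.0172 (without knockdown 1) to 0.25, ACSS2 from −0.0167 (without WT 3) to 0.23 and FASN from −0.14 to 0.0058 (without WT 3). The causes were not tested.

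With the replicate number as a block the paired fit called 0 members (SREBF1 at adjusted p = 0.0555, limma), 101 genes higher and 120 lower. Deviations of same-numbered libraries from their group means correlated at −0.0045, −0.25 and 0.0046 across genes, which gives no sign of pairing by number. Whether the libraries were prepared in pairs is not stated in the labels, and the WT numbers come from column headings alone.

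Each member had at least 49 reads in every library.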
